A study of Mus musculus with 15 samples.

Results

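The 10 genes described here, Atf4, Ddit3, Trib3, Chac1, Asns, Ppp1r15a, Xbp1, Hspa5, Pdia4 and Herpud1, are markers of the integrated stress response and of the unfolded protein response of the endoplasmic reticulum (ER). They were chosen by name and not by a measured value, though with earlier results of these data known, from a table of 54495 mouse genes. All 10 were among the 13562 genes tested, which reached 1 FPKM (fragments divided by gene length in kilobases and by library size) in at least 2 libraries. The table held 11 entries under these names. A second Ddit3 entry of 105 bases (ENSMUSG00000116429, chromosome 10, 127290829 to 127293753) was listed at 0 in every library and was not tested.

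The 15 libraries were made from polyA RNA of mouse embryonic fibroblasts (MEFs), cells grown out of embryos taken at day 13.5 and kept at 37 °C under 3% O2 and 5% CO2 in DMEM containing 10% fetal serum. TM fibroblasts had the genotype mTR-/-Wrn-/-p53N236S/N236S and DM fibroblasts the genotype mTR-/-Wrn-/-p53WT. Every group thus lacked mTR, the RNA component of telomerase, and Wrn, the helicase lost in Werner syndrome, and the genotypes differed in p53. G1, G3 and G5 number the generation of the mice. There were 2 G1TM and 2 G1DM libraries, 3 G3TM and 2 G3DM libraries, and 3 G5TM and 3 G5DM libraries. The stated purpose was to learn how the p53 mutant counters the ageing phenotypes of these mice. Wild-type and p53S control MEFs, which the design text names, were not analysed here. Nothing in the labels says whether the replicates came from separate embryos or cultures. G1DM, G5DM and G5TM held libraries of both sexes and so more than 1 embryo each, while in the other groups the spread behind the p-values may be technical.

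When eIF2 kinases (PERK at the ER, GCN2 on amino acid shortage, PKR and HRI) phosphorylate the translation factor eIF2, overall protein synthesis falls while the mRNA of the transcription factor ATF4 is translated. ATF4 switches on genes of amino acid supply, redox balance and feedback, and with CHOP can turn the response towards cell death. At the ER, the sensors ATF6 and IRE1, the second of which splices the mRNA of XBP1, raise chaperones and the machinery that removes misfolded proteins. ATF4 activity is controlled mainly at translation, so its mRNA and its target mRNAs are separate readouts.

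The promoters of the members were searched for known sequence elements of these transcription factors. Those of Asns, Chac1, Herpud1 and Hspa5 are shown because a match to the ATF4 or ER stress element lay in them. The promoters of the other members held no match to the elements searched. Each line gives the 250 bases before the RefSeq transcription start (GRCm38.p6), 5′ to 3′ on the strand of the gene. Capitals mark, on either strand, a C/EBP-ATF response element (CARE, TGATGNAA), an ER stress response element (ERSE, CCAAT and CCACG with 9 bases of any kind between them) or the related ERSE-II (ATTGG, 1 base of any kind, CCACG).
Asns, chr6:7693210-7693459, minus strand: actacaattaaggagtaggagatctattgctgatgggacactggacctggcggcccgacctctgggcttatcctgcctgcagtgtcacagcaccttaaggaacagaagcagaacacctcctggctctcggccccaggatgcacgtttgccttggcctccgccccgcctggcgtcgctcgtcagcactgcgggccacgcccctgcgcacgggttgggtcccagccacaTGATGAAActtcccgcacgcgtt
Chac1, chr2:119350992-119351241, plus strand: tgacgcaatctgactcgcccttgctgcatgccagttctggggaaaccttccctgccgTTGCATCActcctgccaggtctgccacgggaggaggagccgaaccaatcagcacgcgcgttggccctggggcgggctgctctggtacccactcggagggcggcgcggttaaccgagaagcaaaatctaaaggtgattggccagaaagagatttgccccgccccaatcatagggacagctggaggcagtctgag
Herpud1, chr8:94386179-94386428, plus strand: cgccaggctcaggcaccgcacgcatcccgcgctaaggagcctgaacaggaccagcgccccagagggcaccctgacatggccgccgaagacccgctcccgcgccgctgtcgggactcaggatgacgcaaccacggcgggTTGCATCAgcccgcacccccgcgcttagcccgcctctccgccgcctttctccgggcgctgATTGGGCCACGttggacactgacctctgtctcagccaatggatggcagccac
Hspa5, chr2:34771840-34772089, plus strand: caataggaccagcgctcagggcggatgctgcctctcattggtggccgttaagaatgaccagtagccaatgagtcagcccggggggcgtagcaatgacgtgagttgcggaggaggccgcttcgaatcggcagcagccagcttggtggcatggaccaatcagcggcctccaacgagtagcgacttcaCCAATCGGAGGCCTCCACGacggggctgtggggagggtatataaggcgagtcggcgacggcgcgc
RefSeq held a promoter for all 10 members. CARE was found in 3 of the 10 (Asns from -23 to -16, counted from the start, and Chac1 and Herpud1 on the other strand from -193 to -186 and from -112 to -105), against 3.45% of the 32851 mouse promoters searched. ERSE was found only in Hspa5 among the members, from -65 to -47, and in 0.113% of all promoters. ERSE-II was found only in Herpud1 among them, from -52 to -42, and in 0.0304% of all promoters. The unfolded protein response element (UPRE, TGACGTG), not in capitals, was in 1 of the 10 (Hspa5) and in 1.65% of all promoters. No motif shared letters with another in these 4 promoters. These matches describe letters in this window and say nothing on whether a factor bound there.

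The libraries held 17448588 to 29571111 reads, recovered from the FPKM steps, with 19758 to 25789 genes above 0. All 14 fibroblast markers summed to 3337 to 6796 FPKM in every library, with none at 0. In genes outside the stress response, G3TM and G5TM (6 libraries) formed a set separate from the other 9. The mitochondrial ribosomal RNA mt-Rnr2 was at 44.7 to 73.6 FPKM in the 6 and at 1.48 to 3.76 FPKM in the 9, and the ribosomal protein gene Rpl12 was at 300 to 610 FPKM against 3.84 to 6.77 FPKM. Comparisons of G3TM or G5TM with DM or with G1TM span that division, so the p53 genotype or generation cannot be told apart from it there. Wrn was at 0.599 FPKM at most in any library. Cdkn1a, a main target of p53, averaged 5.06 ± 1.19 FPKM in G1TM and 113 ± 3.79 FPKM in G1DM (SD, n = 2 each), and each TM library lay below each DM library in G3 and G5 too. By Xist and Y-linked genes, all G3TM libraries were male and both G3DM libraries female, so that in G3 genotype and sex cannot be told apart. In bulk RNA, fewer cells of a type and less RNA per cell cannot be told apart.

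Few of the members passed the test between TM and DM. In G5, Atf4 rose in TM and Pdia4 fell. In G3, Trib3 rose in TM. In G1 no member passed. Called genes were those with a Benjamini-Hochberg adjusted p under 0.05 in limma, fitted on log2(FPKM + 1) over all tested genes and all 15 libraries. In G1, 0 of 10 members were called by limma and 0 by limma-voom on the recovered reads, with 0 at an unadjusted p under 0.05, against 1.17% of all tested genes called (0.361% higher and 0.811% lower in TM). In G3, 1 of 10 was called, against 32% of all tested genes (18% higher and 13.9% lower), and in G5 2 of 10, against 58.7% (30.3% higher and 28.4% lower). In G3 both shares moved with the fit, to 3 of 10 members and 24% of all tested genes with a sex term, 5 of 10 and 39.3% without G5DM replicate 1, and 0 of 10 and 11.4% without G3DM replicate 2. The median difference of the 10 members, TM minus DM, was 0.09 log2 in G1, 0.55 in G3 and 0.46 in G5, and over all tested genes it was 0.02, 0.01 and 0.02.

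**Figure D1:**
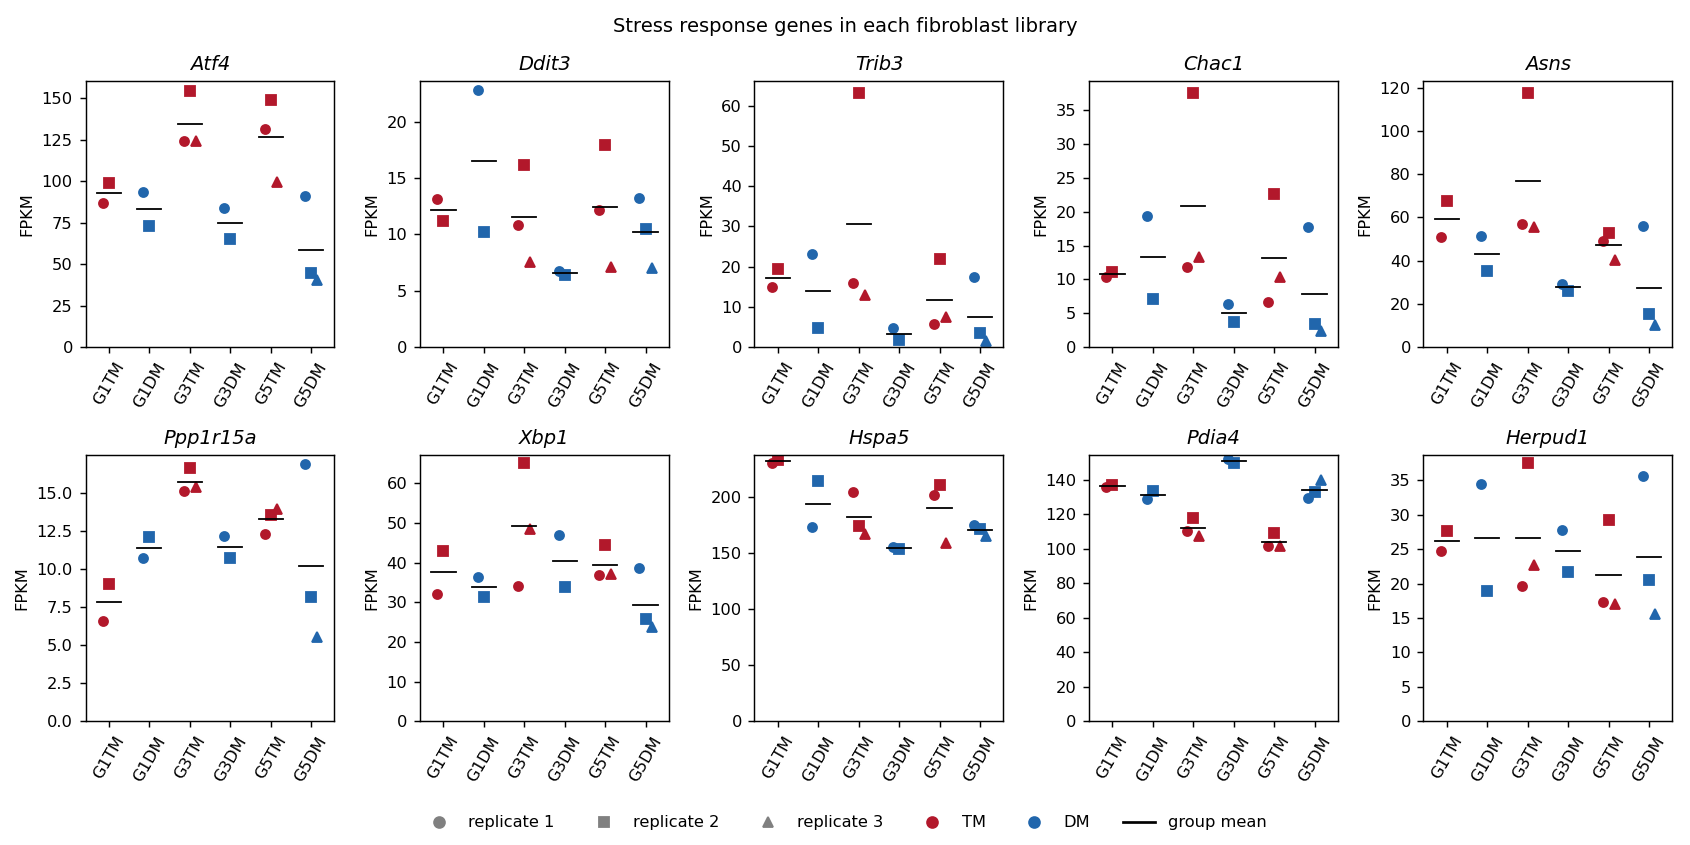
FPKM of the 10 stress response genes in each of the 15 libraries, by group (TM red, DM blue, symbol by replicate number, black line the group mean, axes from 0). Trib3, Chac1 and Asns had a single high library in G3TM (replicate 2, with Trib3 at 63.1 FPKM) and in G5DM (replicate 1, with Trib3 at 17.5 FPKM), while the 15 libraries of Pdia4 lay between 101 and 152 FPKM.

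Atf4 (ENSMUSG00000042406, chromosome 15, 80255184 to 80257541), which encodes the transcription factor at the centre of the integrated stress response, had 87.0 and 98.7 FPKM in G1TM, against 93.3 and 73.2 FPKM in G1DM. In G3 its levels were 124, 155 and 124 FPKM in TM, against 84.1 and 65.2 FPKM in DM. In G5 they were 132, 149 and 99.2 FPKM in TM, against 90.9, 44.6 and 40.3 FPKM in DM. The groups did not overlap in G3 or in G5, and within G5DM replicate 1 had about the level of G1DM while the other two were the lowest of all libraries. Atf4 rose in G5TM by 1.17 ± 0.28 log2 (SE, adjusted p = 0.00339, limma; higher in 3 of 3 TM libraries than in any DM library). That call was lost under quantile normalization (0.48 log2, adjusted p = 0.0985) and held in the other 23 alternatives. The G3 difference was 0.84 ± 0.31 log2 (SE) and missed the threshold (adjusted p = 0.0545, limma). Across all 15 libraries, Atf4 was at 99.2 to 155 FPKM in the 6 libraries of G3TM and G5TM and at 40.3 to 98.7 FPKM in the other 9, as were 17.1% of tested genes, higher in the 6 with no overlap.

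Ddit3 (ENSMUSG00000025408, chromosome 10, 127290774 to 127296288) encodes CHOP, a transcription factor induced by ATF4 that can promote cell death. Its levels were 13.1 and 11.2 FPKM in G1TM, against 22.8 and 10.2 FPKM in G1DM. They were 10.8, 16.2 and 7.57 FPKM in G3TM, against 6.76 and 6.38 FPKM in G3DM, and 12.2, 17.9 and 7.09 FPKM in G5TM, against 13.3, 10.5 and 6.97 FPKM in G5DM. The groups overlapped in G1 and G5, and in G3 each TM library lay above both DM libraries. The G3 difference was 0.67 ± 0.40 log2 (SE, adjusted p = 0.217, limma), and the G1 and G5 differences were -0.32 and 0.21.

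Trib3 (ENSMUSG00000032715, chromosome 2, 152337422 to 152344032) encodes a pseudokinase that is a target and an inhibitor of ATF4 and CHOP. It was the most variable member. In G1 it had 14.9 and 19.5 FPKM in TM, against 23.2 and 4.84 FPKM in DM. The G3 levels were 16.0, 63.1 and 13.0 FPKM in TM, against 4.76 and 1.80 FPKM in DM. The G5 levels were 5.68, 22.0 and 7.56 FPKM in TM, against 17.5, 3.54 and 1.44 FPKM in DM. The groups were separate in G3 and overlapped in G1 and G5. Trib3 rose in G3TM by 2.63 ± 0.87 log2 (SE, adjusted p = 0.0348, limma; higher in 3 of 3 TM libraries than in either DM library). The call was lost without G3TM replicate 2 (1.94 log2, adjusted p = 0.129), without G3DM replicate 1 (3.15, 0.0694), without G3DM replicate 2 (2.11, 0.236) and without G3TM replicates 2 and 3 (2.08, 0.287). It was also lost under quantile normalization, limma-voom, no filter on low values and a fit of only these groups (adjusted p = 0.0600, 0.0623, 0.112 and 0.0521), with a log2 difference of 2.39 to 2.86 in these. Over its 24 alternatives the adjusted p lay between 0.0136 and 0.287.

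Chac1 (ENSMUSG00000027313, chromosome 2, 119351229 to 119354381) encodes an enzyme that degrades glutathione and is induced by ATF4. In G1 it had 10.4 and 11.2 FPKM in TM, against 19.4 and 7.12 FPKM in DM. In G3 it had 11.9, 37.6 and 13.3 FPKM in TM, against 6.40 and 3.73 FPKM in DM, and in G5 6.66, 22.6 and 10.4 FPKM in TM, against 17.8, 3.44 and 2.35 FPKM in DM. TM and DM were separate in G3 only. The G3 difference was 1.70 ± 0.70 log2 (SE, adjusted p = 0.0804, limma) and the G5 difference 0.96 ± 0.63 log2 (adjusted p = 0.202).

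Asns (ENSMUSG00000029752, chromosome 6, 7675169 to 7693254) encodes asparagine synthetase, a classical ATF4 target and the gene whose CARE stands nearest to its start among the promoters shown. It had 50.9 and 67.7 FPKM in G1TM, against 51.3 and 35.0 FPKM in G1DM. Its G3 levels were 57.1, 118 and 55.7 FPKM in TM, against 29.3 and 26.0 FPKM in DM. Its G5 levels were 49.1, 52.8 and 40.1 FPKM in TM, against 56.2, 15.5 and 10.1 FPKM in DM. Groups were separate in G3, and in G5 the overlap came from G5DM replicate 1 alone. The differences were 1.35 ± 0.53 log2 in G3 (SE, adjusted p = 0.0654, limma) and 1.13 ± 0.47 log2 in G5 (SE, adjusted p = 0.0531, limma).

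Ppp1r15a (ENSMUSG00000040435, chromosome 7, 45522916 to 45526268) encodes GADD34, the phosphatase subunit that removes phosphate from eIF2 and so ends the response. It had 6.62 and 9.04 FPKM in G1TM, against 10.7 and 12.1 FPKM in G1DM. In G3 it had 15.1, 16.7 and 15.4 FPKM in TM, against 12.2 and 10.7 FPKM in DM, and in G5 12.3, 13.5 and 13.9 FPKM in TM, against 16.9, 8.15 and 5.52 FPKM in DM. TM lay below DM without overlap in G1 and above it in G3, and the G5 groups overlapped through G5DM replicate 1. None of the 3 differences passed (-0.50 ± 0.34, 0.43 ± 0.31 and 0.48 ± 0.27 log2 in G1, G3 and G5, SE).

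Among the ER members, Hspa5 (ENSMUSG00000026864, chromosome 2, 34771970 to 34777547) encodes BiP, the main ER chaperone, and had the highest FPKM of the 10. It had 231 and 234 FPKM in G1TM, against 174 and 214 FPKM in G1DM. For G3 the levels of Hspa5 were 204, 175 and 167 FPKM in TM, against 156 and 154 FPKM in DM, and in G5 203, 211 and 159 FPKM in TM, against 176, 172 and 165 FPKM in DM. TM lay above DM in G1 and G3 by little, and the G5 groups overlapped. The differences of 0.27 ± 0.22, 0.23 ± 0.20 and 0.15 ± 0.18 log2 in G1, G3 and G5 (SE) did not pass in limma, with adjusted p = 0.753, 0.414 and 0.494. Under quantile normalization the G5 difference was -0.65 log2 (adjusted p = 0.0325, limma), and the G3 difference was -0.17, so the sign of these differences rests on the scaling.

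Pdia4 (ENSMUSG00000025823, chromosome 6, 47796141 to 47813430), a protein disulfide isomerase that folds proteins in the ER, had 135.6 and 137 FPKM in G1TM, against 129 and 134 FPKM in G1DM. For G3 the values were 110.3, 118 and 108 FPKM in TM, against 152 and 149 FPKM in DM. For G5 the values were 101, 109 and 101 FPKM in TM, against 129.6, 133 and 140 FPKM in DM. In G3 and G5 each TM library lay below each DM library. Pdia4 fell by 0.36 ± 0.15 log2 in G5TM (SE, adjusted p = 0.0469, limma; lower in 3 of 3 TM libraries than in any DM library), a small step just past the threshold. It lost the call when only G5TM and G5DM were fitted (adjusted p = 0.192, limma), with a sex term (0.0723), with the filter at 5 FPKM (0.0564), with a replicate block (0.0865), without G3TM replicates 2 and 3 (0.0549) and in 13 of the 15 fits that left out 1 library. The adjusted p in those 15 lay between 0.0328 and 0.118. The difference was larger under quantile normalization (-1.10 log2) and in limma-voom (-0.55 log2). In G3 the difference was -0.43 ± 0.16 log2 (SE, adjusted p = 0.0629, limma), and it passed under quantile normalization (-0.85 log2, adjusted p = 0.0112), in limma-voom (-0.55 log2, 0.0243), with no filter (0.0438) and without G5DM replicate 1 (0.0358). Pdia4 was at 101 to 118 FPKM in the 6 libraries of G3TM and G5TM and at 129 to 152 FPKM in the other 9, and 9.63% of tested genes were likewise lower in the 6 with no overlap.

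Xbp1 (ENSMUSG00000020484, chromosome 11, 5520659 to 5525893) encodes the transcription factor whose mRNA is spliced by IRE1, and gene-level FPKM cannot separate the spliced form. It had 32.2 and 42.9 FPKM in G1TM, against 36.5 and 31.4 FPKM in G1DM. Values in G3 were 34.2, 65.1 and 48.5 FPKM in TM, against 47.0 and 33.8 FPKM in DM, and in G5 37.0, 44.3 and 37.2 FPKM in TM, against 38.5, 25.8 and 23.8 FPKM in DM. Groups overlapped in all 3 generations. Herpud1 (ENSMUSG00000031770, chromosome 8, 94386438 to 94395377) encodes an ER membrane protein of the degradation machinery and is a target of both arms. It had 24.8 and 27.6 FPKM in G1TM, against 34.4 and 18.9 FPKM in G1DM. In G3 it had 19.6, 37.6 and 22.7 FPKM in TM, against 27.8 and 21.6 FPKM in DM, and in G5 17.4, 29.2 and 17.1 FPKM in TM, against 35.7, 20.6 and 15.6 FPKM in DM. These groups also overlapped in every generation. The differences of the pair lay between -0.13 and 0.44 log2, and none passed.

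Counting members whose TM and DM libraries did not overlap gave 7 higher and 1 lower in G3, 1 and 1 in G5, and 2 and 1 in G1. Over all tested genes, 59.8% did not overlap in G3 (31.6% higher and 28.2% lower in TM), 58% in G5 (29.6% and 28.3%) and 49.4% in G1 (26.4% and 23%). Of the 24 fits that changed 1 choice in G3, the number of members called ranged from 0 to 5, and in G5 from 1 to 6. The upper ends of both came without G5DM replicate 1. Its omission left 6 members called in G5, namely Atf4 (1.54 log2), Asns (1.83), Chac1 (1.72), Xbp1 (0.65) and Ppp1r15a (0.88) higher in TM and Pdia4 lower (-0.39). That fit called 65.8% of all tested genes in G5. G5DM replicate 1 was a female library with 21138 genes above 0, while replicates 2 and 3 were male, with 24874 and 25789 genes. Whether these properties bear on its stress gene levels was not tested. Other-cell markers also differed between the genotypes, not always in the same direction in each generation. In G1 the cartilage markers were lower in TM (26.7 to 32.3 FPKM in G1TM and 60.3 to 83.2 FPKM in G1DM). So were the adipocyte markers (1.25 to 1.96 and 2.42 to 3.61 FPKM) and the endothelial markers (1.49 to 1.53 and 2.35 to 2.59 FPKM). Neural and epithelial markers overlapped in G1. The 6 neural markers summed to 95.1 to 148 FPKM in G5TM and 38.4 to 48.8 FPKM in G5DM, mostly through Tubb3 and Nes, with Snap25 at 0.0818 FPKM at most. The 6 epithelial markers summed to 19.5 to 50.3 FPKM in G5TM and 3.87 to 5.25 FPKM in G5DM, mostly Krt18 and Krt8, with Epcam at 0.645 FPKM at most. The 5 cartilage markers summed to 105 to 263 FPKM in G5TM and 24.2 to 47.97 FPKM in G5DM, mostly Col2a1. The 4 adipocyte markers summed to 3.83 to 6.56 FPKM in G5TM and 1.49 to 2.24 FPKM in G5DM, with Adipoq at 0 in 12 of the 15 libraries, and the 6 endothelial markers to 0.963 to 1.98 FPKM in G5TM and 3.63 to 4.06 FPKM in G5DM. In G3 the neural markers were higher in TM (120 to 286 FPKM in G3TM and 61.2 to 96.5 FPKM in G3DM) and the endothelial markers lower (1.56 to 1.62 FPKM in G3TM and 4.88 to 5.09 FPKM in G3DM). The 14 fibroblast markers summed to 3337 to 3693 FPKM in G5TM and 4315 to 4530 FPKM in G5DM. The part of these markers in the results was not tested.

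**Figure D2:**
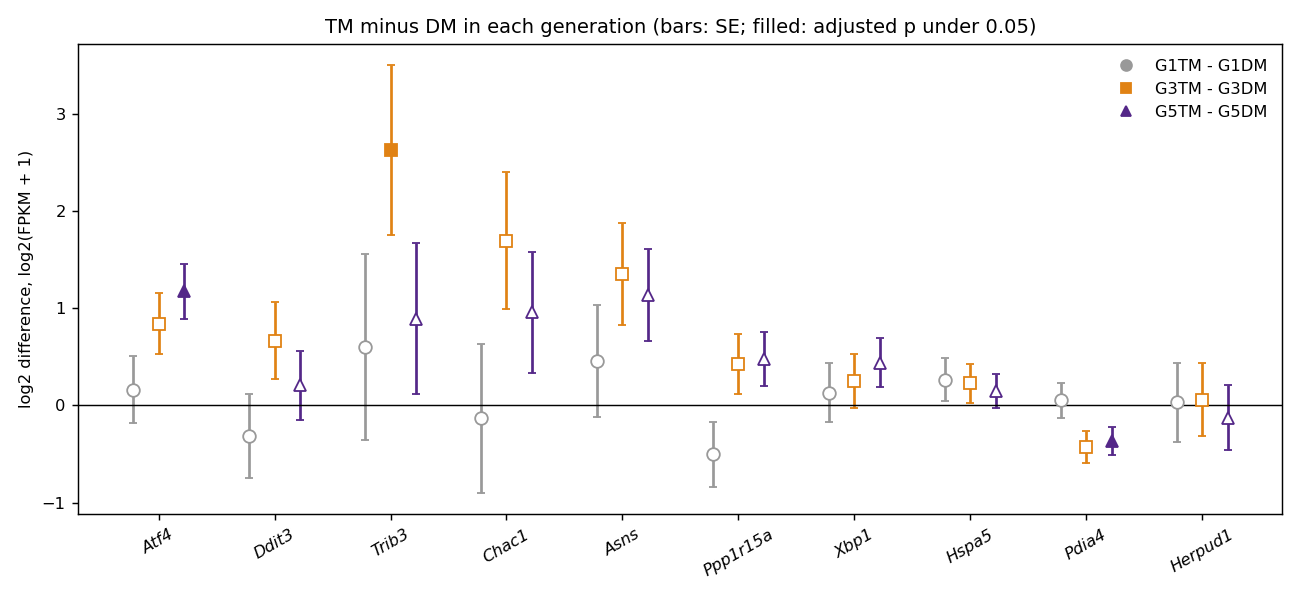
TM minus DM difference of each member in G1, G3 and G5 on the log2(FPKM + 1) scale, with bars of 1 SE and filled symbols for an adjusted p under 0.05 in limma. Filled symbols are Trib3 in G3 (2.63), Atf4 in G5 (1.17) and Pdia4 in G5 (-0.36), and the bars of Trib3 are the widest.

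The larger pattern lay between libraries of the same group. Trib3, Chac1 and Asns differed more between replicate libraries than nearly all other genes, and Herpud1 and Ddit3 followed them, while Hspa5 and Pdia4 hardly moved. The SD within groups, on the log2(FPKM + 1) scale, was 1.15 for Trib3, 0.915 for Chac1 and 0.675 for Asns, above those of 99.8%, 99.2% and 97.4% of tested genes. It was 0.499 for Ddit3, 0.460 for Herpud1, 0.370 for Ppp1r15a, 0.361 for Atf4 and 0.321 for Xbp1, around or above the median of all tested genes, 0.279. For Hspa5 it was 0.146 and for Pdia4 0.0520, with only 8.44% and 0.0295% of tested genes lower. Set against genes of like level, Trib3 kept its place (99.8% of 2450 genes) and so did Hspa5 (3.39% of 177) and Pdia4 (0.376% of 266). In folds, Trib3 ranged 12.2-fold within G5DM, 4.84-fold within G3TM and 4.80-fold within G1DM, and Pdia4 at most 1.097-fold within any group.

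**Figure D3:**
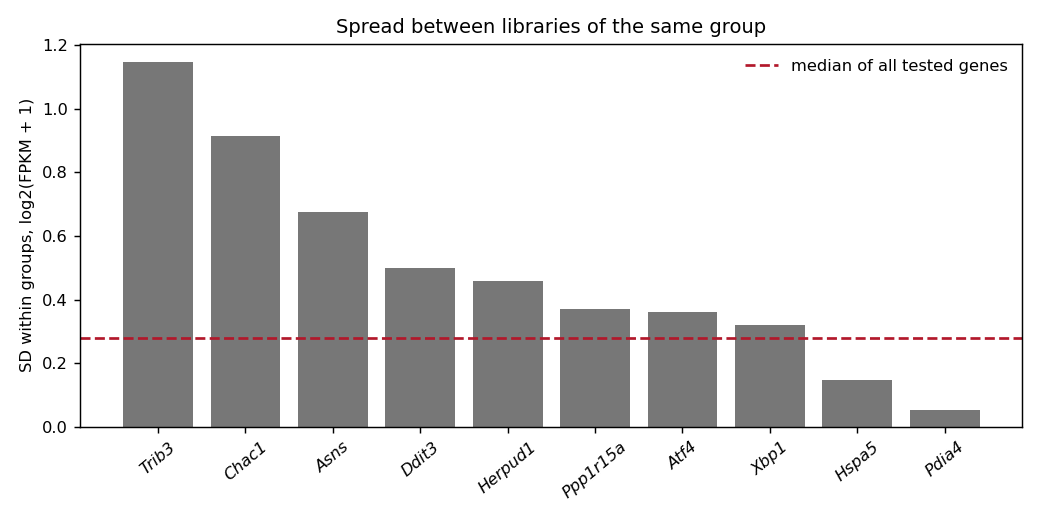
SD of each member between libraries of the same group on the log2(FPKM + 1) scale (bars from 0), with the median of all 13562 tested genes as a dashed line at 0.279. The bars run from 1.15 for Trib3 to 0.0520 for Pdia4.

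The libraries that were high were high for most members together. G1TM replicate 2, G3TM replicate 2, G5TM replicate 2 and G5DM replicate 1 each held the highest value of their group for 9 of 10 members, G3DM replicate 1 for all 10 and G1DM replicate 1 for 7. Of all tested genes, those libraries held the highest value for 51.9%, 32.8%, 30.1%, 50%, 50.3% and 46.6%. After the group means were subtracted, Trib3 and Chac1 deviated together over the 15 libraries (Pearson's r = 0.979, exact permutation p = 0.00174, Spearman's rho = 0.964, exact permutation p = 0.00174; r = 0.968 without the 2 libraries farthest from the median). Trib3 and Herpud1 did so likewise (r = 0.981, exact permutation p = 0.00347, rho = 0.932, exact permutation p = 0.00405; r = 0.968 without 2), as did Atf4 and Asns (r = 0.929, exact permutation p = 0.00116, rho = 0.864, exact permutation p = 0.00116; r = 0.814 without 2). The adjusted p of these pairs was 0.00868, 0.0130 and 0.00868, over the 45 pairs of members and the 1728 relabellings within groups, whose smallest p was 0.000579. In all, 20 of the 45 pairs passed, all with a positive r of 0.649 to 0.981, and 18 passed by Spearman's rho. Of the 17 pairs with Hspa5 or Pdia4, 0 passed by either coefficient, with r of -0.0359 and 0.153 against Trib3 and 0.269 against each other. The r of Hspa5 with Trib3 was -0.397 under quantile normalization.

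Many genes outside the response also followed the members. Of the 13561 other tested genes, 8.63% had an r of at least 0.649 with Trib3, 11.8% with Atf4, 16.7% with Asns, 5.06% with Ddit3, 3.13% with Hspa5 and 0.841% with Pdia4. Of the 9 other members, 6 reached that r with Trib3, 7 with Atf4, 7 with Asns, 5 with Ddit3, 0 with Hspa5 and 0 with Pdia4. The cut of 0.649 was the lowest r among the member pairs that passed. It was thus set from the members themselves, and their counts are a description only. The number of passing pairs depended on G5DM replicate 1, without which 8 passed. It was 13 without G3TM replicate 2, 13 without G5DM replicate 2 and 13 without G5DM replicate 3. Each of these runs had 576 relabellings, against 1728 in the main run, so the counts are not on a like footing. The r of Trib3 with Chac1 stayed between 0.974 and 0.985 in all 19 alternatives run. The high libraries were of both sexes, males being G1DM replicate 1 and G3TM replicate 2. Skeletal muscle markers summed to 414 FPKM in G3TM replicate 2 against 42.5 and 188 FPKM in G3TM replicates 1 and 3, but to 38.7 FPKM in G5TM replicate 2 against 60.8 and 138 FPKM in G5TM replicates 1 and 3. The 10 macrophage and leukocyte markers summed to 389 FPKM in G3TM replicate 3, against 7.74 and 66.0 FPKM in G3TM replicates 1 and 2. They summed to 119 FPKM in G5TM replicate 3, against 30.3 and 36.3 FPKM in G5TM replicates 1 and 2. Whether these markers bear on the spread of the members was not tested. Plasma cell and erythroid markers summed to 0.803 FPKM at most in any library.

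**Figure D4:**
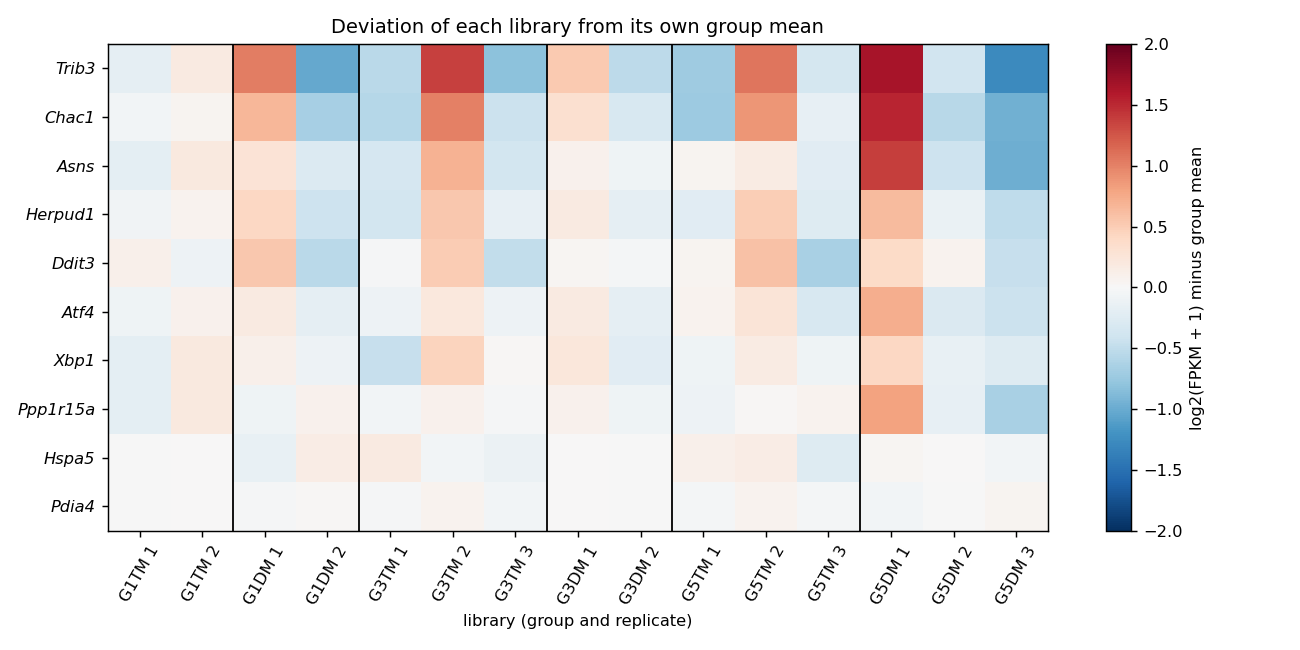
Deviation of each of the 15 libraries (columns, grouped by group) from its own group mean on the log2(FPKM + 1) scale (colour, red above and blue below) for the 10 members (rows). G3TM replicate 2 and G5DM replicate 1 are red from Trib3 down to Xbp1, and the rows of Hspa5 and Pdia4 are near white throughout.

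The high libraries were also high for the wider set of ATF4 targets that synthesize and import amino acids, a list of 20 genes, 19 of them tested. The highest value of the group fell in G1TM replicate 2 for 17 of the 19, in G3TM replicate 2 for 15 and in G5TM replicate 2 for 11. It fell in G1DM replicate 1 for 16, in G3DM replicate 1 for 17 and in G5DM replicate 1 for 18. Slc3a2, the heavy chain of an amino acid transporter, had 117 FPKM in G3TM replicate 2 against 69.9 and 104 FPKM in G3TM replicates 1 and 3. It had 51.8 FPKM in G5DM replicate 1 against 20.3 and 16.7 FPKM in G5DM replicates 2 and 3. Of the 18 tested ER chaperone and oxidative folding genes, the counts in the same order were 12, 8, 5, 4, 12 and 12. Of the 11 stress sensor and eIF2 genes they were 6, 1, 3, 3, 4 and 5. The 17 regulators downstream of ATF4 and CHOP gave 13, 13, 13, 12, 10 and 10. Translocation and trafficking genes, 17 in all, gave 12, 8, 5, 11, 14 and 12. The 13 tested genes of ER-associated degradation gave 9, 6, 8, 6, 6 and 7. Over all tested genes the shares in that order were 51.9%, 32.8%, 30.1%, 46.6%, 50.3% and 50%. High counts in these libraries were thus not particular to the amino acid list.

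**Figure D5:**
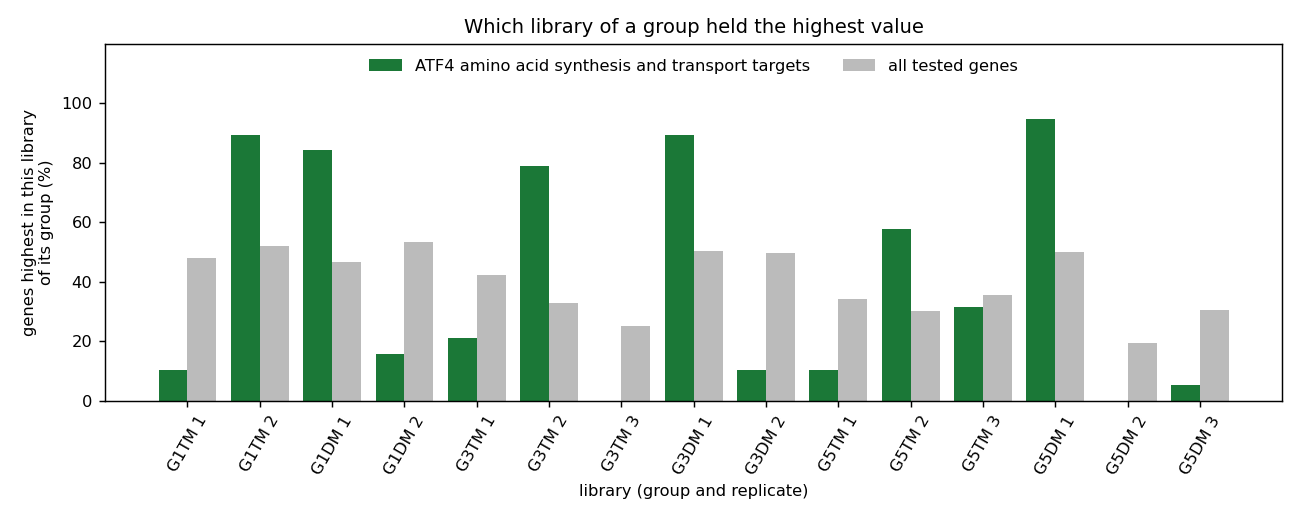
Percent of the 19 tested ATF4 amino acid targets (green) and of all 13562 tested genes (grey) whose highest value within the group fell in each library (bars from 0, 15 libraries). The green bars reach 17 of 19 in G1TM replicate 2 and 18 of 19 in G5DM replicate 1, where the grey bars stand at 51.9% and 50%.

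Between genotypes, several genes of the amino acid list passed. In G3, 8 of 19 rose in TM, 1 fell and 10 did not pass, and in G5 the counts were 8, 1 and 10. Of all tested genes, 18% rose and 13.9% fell in G3, and 30.3% rose and 28.4% fell in G5. The list had medians of 1.21 and 0.64 log2 against 0.01 and 0.02 over all tested genes. In G1 none of 19 passed in limma or in limma-voom, with a median of 0.46 log2. The largest were transporters of large neutral amino acids and an enzyme of mitochondrial folate metabolism. Slc7a5 had 88.0, 136 and 122 FPKM in G3TM, against 32.4 and 21.6 FPKM in G3DM (2.06 ± 0.49 log2, SE, adjusted p = 0.00719, limma). It had 72.1, 65.8 and 104 FPKM in G5TM, against 55.8, 14.0 and 12.3 FPKM in G5DM (1.83 ± 0.44 log2, SE, adjusted p = 0.00346, limma). All TM libraries lay above all DM libraries in both generations, with G5DM replicate 1 nearest to TM. Its partner chain Slc3a2 rose by 1.56 ± 0.38 log2 in G3TM and by 1.66 ± 0.34 log2 in G5TM (SE, adjusted p = 0.00829 and 0.00137, limma), and Shmt2 by 1.53 ± 0.44 and 1.39 ± 0.39 log2 (SE, adjusted p = 0.0183 and 0.00907, limma). The one member of the list that fell in each was Slc38a2, a neutral amino acid transporter, by 0.83 ± 0.25 and 0.73 ± 0.22 log2 (SE). Without G3TM replicates 2 and 3, no gene of the list was called in G3, in a fit where the 1 library left is assumed to vary like the other groups and 6.54% of all tested genes were called. The median of the list was then 0.75 log2, and over the 24 alternatives the difference of Slc7a5 was at least 1.62 and that of Slc3a2 at least 1.13 log2.

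Of the 11 stress sensor and eIF2 genes upstream, 1 rose, 4 fell and 6 did not pass in G3TM, and the counts were 1, 4 and 6 in G5TM. Over all tested genes 32% were called in G3 and 58.7% in G5. None of the 11 passed in G1 in limma or limma-voom. Eif2ak3, which encodes PERK, fell by 1.25 ± 0.29 log2 in G3TM and by 1.06 ± 0.26 log2 in G5TM (SE, adjusted p = 0.00652 and 0.00417, limma). It had 3.73, 2.84 and 1.93 FPKM in G3TM, against 6.78 and 9.37 FPKM in G3DM, and 2.03, 4.59 and 2.24 FPKM in G5TM, against 5.38, 8.30 and 7.45 FPKM in G5DM. Each TM library lay below each DM library. Atf6, the ER sensor that becomes a transcription factor, fell by 0.88 ± 0.18 log2 in G3TM (SE), while its relative Atf6b rose by 0.96 ± 0.25 log2 in G3TM and 1.39 ± 0.22 log2 in G5TM (SE). Eif2ak2, the RNA-activated kinase PKR, fell by 1.96 ± 0.47 log2 in G5TM (SE).

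Of 17 regulators downstream of ATF4 and CHOP, 1 rose and 1 fell in G1TM, 4 rose and 2 fell in G3TM, and 5 rose and 5 fell in G5TM. The G3 and G5 counts were close to the shares of all tested genes (18% higher and 13.9% lower in G3, 30.3% and 28.4% in G5). Tnfrsf10b, a death receptor gene that is a target of CHOP and of p53, was the gene that fell in G1, with 5.84 and 6.05 FPKM in G1TM against 16.6 and 17.2 FPKM in G1DM (-1.37 ± 0.18 log2, SE, adjusted p = 0.00225, limma). It fell by 1.97 ± 0.16 log2 in G3TM and by 1.53 ± 0.14 log2 in G5TM (SE). Stc2, a secreted glycoprotein induced by ATF4, had 13.5 and 20.9 FPKM in G1TM against 3.99 and 5.86 FPKM in G1DM (1.61 ± 0.35 log2, SE, adjusted p = 0.0462, limma), a call kept in 9 of 25 alternatives. Cebpb, a partner of ATF4 and CHOP, rose by 1.41 ± 0.33 log2 in G3TM and by 2.66 ± 0.30 log2 in G5TM (SE), and Eif4ebp1, an inhibitor of cap-dependent translation, by 1.75 ± 0.41 and 1.89 ± 0.36 log2 (SE).

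Of 18 tested ER chaperone and oxidative folding genes, 4 rose and 2 fell in G3TM, 5 rose and 6 fell in G5TM, and none passed in G1 in limma or limma-voom. These counts too were close to the shares of all tested genes in each direction. Sdf2l1, a chaperone cofactor, rose by 1.74 ± 0.30 log2 in G3TM and by 1.64 ± 0.27 log2 in G5TM (SE), and Dnajb9, a BiP co-chaperone, fell by 1.12 ± 0.19 and 1.58 ± 0.17 log2 (SE). The lectin chaperone Canx fell by 1.36 ± 0.19 log2 in G5TM (SE), and Creld2 rose by 1.10 ± 0.22 log2 in G3TM (SE). Under quantile normalization the counts were 3 and 5 in G3 and 3 and 9 in G5. Of the 13 tested genes of ER-associated degradation, 0 rose and 3 fell in G3TM (Sel1l by 0.78, Ube2j1 by 0.61 and Syvn1 by 0.48 log2), and 2 rose and 4 fell in G5TM, with Edem3 lowest (-2.03 ± 0.32 log2, SE). With quantile normalization 8 fell in each. Of 17 translocation and trafficking genes, 4 rose and 2 fell in G3TM and 6 rose and 6 fell in G5TM, Sec61g and Ssr2 highest (1.58 and 1.54 log2 in G3, 1.98 and 1.76 log2 in G5). The counts in G5 were 4 and 11 under quantile normalization. Beside these counts stand 32% of all tested genes called in G3 (18% higher and 13.9% lower) and 58.7% in G5 (30.3% and 28.4%). Under quantile normalization, 2100 of the 13562 tested genes rose and 2215 fell in G3. In G5 under that scaling 3911 rose and 3925 fell.

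Between generations of DM fibroblasts, no member passed. In G3DM against G1DM limma called 0 of 10 and limma-voom 0, with 1 at an unadjusted p under 0.05 (Ddit3, -1.11 ± 0.43 log2, SE), against 0.214% of all tested genes called. In that comparison 1 member lay wholly higher and 5 wholly lower, against 63.1% of tested genes that did not overlap. In G5DM against G1DM both tools called 0, with 0 at an unadjusted p under 0.05, against 0.059% of all tested genes, and every member overlapped, as against 13.5% of tested genes that did not. In G5DM against G3DM both called 0, again with 0 at an unadjusted p under 0.05, against 4.98% of all tested genes, and 2 members lay wholly higher and 1 wholly lower, against 35.7%. The count in G3DM against G1DM stayed at 0 in all 25 alternatives, while the null counts involving G5DM rested on G5DM replicate 1. Without that library, Asns fell in G5DM relative to G1DM (-1.68 log2, adjusted p = 0.0434, limma), against 0.973% of all tested genes called. Atf4, Asns and Ppp1r15a then fell relative to G3DM (-0.79, -1.08 and -0.69 log2), against 22.9% of all tested genes called. The G5DM libraries left were male and both G3DM libraries female, so generation and sex cannot be told apart in that fit. Of the pathway lists, no gene passed in limma in G3DM or G5DM against G1DM. In G5DM against G3DM 4 genes rose, the ER chaperone genes Hsp90b1 and Canx (1.72 ± 0.36 and 1.01 ± 0.22 log2, SE), the protease gene Mbtps2 that releases ATF6 (1.03 ± 0.21) and the translocation gene Sec62 (1.67 ± 0.32). The calls in this comparison were unstable: 676 of all tested genes passed, 0 with only these groups fitted, 14 without G3DM replicate 1, 27 without G3DM replicate 2, 47 without G5DM replicate 2, 110 without G5DM replicate 3 and 3107 without G5DM replicate 1. Each of the 4 kept its sign in every alternative, and the call was kept by Hsp90b1, Canx and Sec62 in 15 of 25 and by Mbtps2 in 15 of 24.

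Between generations of TM fibroblasts, Ppp1r15a rose in G3TM relative to G1TM by 0.93 ± 0.31 log2 (SE, adjusted p = 0.0250, limma), with 15.1 to 16.7 FPKM in G3TM and 6.62 and 9.04 FPKM in G1TM. It was the only one of 10 called, against 46.8% of all tested genes, and 3 members lay wholly higher and 2 wholly lower, against 72.6% of tested genes that did not overlap. The call was lost without G1TM replicate 1 (0.74 log2, adjusted p = 0.196, limma), without G3TM replicate 2 (0.0673), without G3TM replicate 3 (0.0563), under quantile normalization (0.0554), in limma-voom (0.0532) and with no filter on low values (0.0682). In its place quantile normalization and limma-voom called Hspa5 (-1.12 and -0.60 log2) and Pdia4 (-0.98 and -0.52 log2) lower in G3TM. In G5TM against G1TM limma called 0 of 10 and limma-voom 1 (Pdia4, -0.55 log2), with 2 at an unadjusted p under 0.05, Ppp1r15a (0.70 ± 0.31 log2) and Pdia4 (-0.39 ± 0.16 log2, SE), against 49.5% of all tested genes. There 2 members lay wholly higher and 2 wholly lower, against 73.6% of tested genes that did not overlap. Atf4 was 0.52 and 0.42 log2 higher in G3TM and G5TM than in G1TM, and -0.16 and -0.25 log2 under quantile normalization. In G5TM against G3TM both tools called 0, with 0 at an unadjusted p under 0.05, against 0.0295% of all tested genes, and 2 members (Asns and Ppp1r15a) lay wholly lower, against 5.8% of tested genes that did not overlap.

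An interaction term tested whether the genotype difference changed from one generation to another. For G3 against G1, limma called 0 of 10 and limma-voom 0, with 0 at an unadjusted p under 0.05, against 2.42% of all tested genes. For G5 against G1 both called 0, with 2 at an unadjusted p under 0.05, against 19.8% of all tested genes. Those 2 were Atf4 (1.01 ± 0.44 log2, SE, adjusted p = 0.110, limma) and Ppp1r15a (0.98 ± 0.43 log2, SE, adjusted p = 0.114, limma). Without G5DM replicate 1, 3 members passed, namely Atf4 (1.37 log2, adjusted p = 0.00513), Asns (1.37, 0.0329) and Ppp1r15a (1.39, 0.00187). In that fit 42.4% of all tested genes passed. In the main fit, the G5 difference of Atf4 was not shown to differ from its G1 difference (0.16 ± 0.34 log2, SE).

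Genes whose deviations from their group means were most like those of a member, over the 15 libraries, were taken for Atf4, Ddit3 and Hspa5. For Atf4 they were Cd81 (r = 0.965), Macrod1 (0.959) and Mthfd2 (0.959), the last a mitochondrial folate enzyme and an ATF4 target of the amino acid list. For Ddit3 they were Paxx (0.968), Mmab (0.960) and Ralgds (0.9565). For Hspa5 they were Rbm45 (0.928), Pfn2 (0.912) and Arntl (0.903). These values are the highest among the tested protein-coding genes, which share libraries and depth with the member, and are given as a description only.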

How the data were processed

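Bulk polyA RNA was sequenced from 15 libraries of mouse embryonic fibroblasts (NEBNext Ultra libraries, per the labels' protocols). The authors deposited FPKM per gene with the listed gene length, 1 column per library. Tools listed, with no role, in the submitters' processing notes are the aligner HISAT2 2.0.5, the counter featureCounts 1.5.0-p3, CASAVA 1.8, DESeq2 1.20.0 and fastp. The genome build, annotation and strand setting are not given in the sources used here, and 98.1% of the 54495 genes had the same start and end as in GENCODE vM21 (GRCm38). Unstranded counting would not separate overlapping or antisense genes.

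The members and gene lists were chosen with earlier results of these data known. Here, log2(FPKM + 1) of the 13562 genes with at least 1 FPKM in at least 2 libraries was fitted with limma 3.58.1 (R 4.3.3; trended variance, 6 group means, all 15 libraries), and p-values were Benjamini-Hochberg adjusted over all tested genes, with calls at 0.05. Differences on this scale understate the changes of low genes. FPKM times gene length fell on whole multiples of 1 step per library (within 0.05, 100% of values), and the reads so recovered (17448588 to 29571111 per library) entered limma-voom as an alternative. Correlations used deviations from group means and exact permutation within groups (scipy 1.17.1), 2-sided. Every member was named, and beside the members the 3 genes of a list with the largest called change per comparison, and the 3 genes most like Atf4, Ddit3 and Hspa5. Alternatives changed the pseudocount, the filter, the scaling, the libraries and the terms of the fit. Motifs were searched in RefSeq promoters (GRCm38.p6) of 250 bases. The fits were tested on simulated data in which each gene varied independently. That test does not cover deviations shared by many genes of a library. Nor does it cover the division of G3TM and G5TM from the other libraries.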

Additional observations from a re-analysis of the deposited data

How the results depend on the processing

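Of 2680 member differences refitted under the alternatives, 2486 kept their sign and side of the threshold, 45 passed in addition and 34 no longer passed. The sign changed in 115, of which 114 passed in neither fit and 1 did, Hspa5 in G5TM minus G5DM (0.15 log2, and -0.65 log2 under quantile normalization). Quantile normalization gave 19 of the sign changes. In G3TM minus G3DM, 1 member was called, against 2 with the filter at 5 FPKM, 2 with only the groups compared, 3 with a sex term, 0 without G3TM replicates 2 and 3, and 0 to 5 when 1 library was left out. In G5TM minus G5DM, 2 were called, against 1 with only the groups compared, 1 with a sex term, 1 without G3TM replicates 2 and 3, and 1 to 6 when 1 library was left out. In G3TM minus G1TM, 1 was called, against 0 with no filter, 2 under quantile normalization, 2 in limma-voom, 0 without G3TM replicates 2 and 3, and 0 to 1 when 1 library was left out. In G5TM minus G1TM, 0 were called, against 1 with no filter, 2 under quantile normalization, 1 in limma-voom, 1 with only the groups compared, 1 with a sex term, and 0 to 2 when 1 library was left out. The G5 interaction gave 0, against 1 under quantile normalization and 0 to 3 when 1 library was left out. G5DM minus G1DM gave 0 to 1 and G5DM minus G3DM 0 to 3 when 1 library was left out. The cause of these changes was not tested. The share of all tested genes called moved too. In G3TM minus G3DM it was 32%, and 40.3% with the filter at 5 FPKM. It was 26.2% there with only the groups compared and 24% with a sex term. In G5TM minus G5DM it was 58.7%, 47.2% with only those groups and 53.4% with a sex term. In G3TM and G5TM minus G1TM it was 46.8% and 49.5%, and with no filter 16% and 18.1%. In the G5 interaction it was 19.8%, and 21.2% under quantile normalization. Alternatives for the pairs of members were chosen after seeing the data. In these a group left with 1 library was dropped, so leaving out a G1DM, G1TM or G3DM library left 13 libraries. In the main run 20 pairs passed, against 13 without any G3TM library (12 libraries left). When 1 library, or with it its whole group, was left out, 8 to 22 passed. Relabellings within groups were 1728 in the main run and 288 to 864 in these, so the counts are not on a like footing. Over all tested genes, 9 of 33 same-numbered pairs correlated above 0.1, and 2 of 15 libraries correlated best with their own number. For the members, replicate 2 held most of the highest values in each TM group (9, 9 and 9 of 10 in G1, G3 and G5). Replicate 1 did so in each DM group (7, 10 and 9 of 10). Whether replicate numbers mark a shared batch was not tested. With the replicate block, 4 members were called in G3TM minus G3DM, against 24.9% of all tested genes. Limma-voom moved the median of all genes by up to 0.18 log2 below 0 (-0.18 in G3TM minus G1TM and -0.16 in G5TM minus G5DM), and the share of calls that were higher in G3TM than in G1TM was 42.2%, against 53.8%. Groups of 2 and 3 libraries limit what could be called.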
